A study of Mus musculus with 22 samples.

Results

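Hepatic stellate cells are the vitamin A-storing pericytes of the liver sinusoid, and in injured liver they can turn into contractile, matrix-producing myofibroblasts. The 10 genes examined here in 22 livers are widely used to follow that change: the cytoskeletal and contractile genes Acta2, Tagln, Des and Vim, the platelet-derived growth factor receptors Pdgfrb and Pdgfra, and Reln, Hand2, Ngfr and Lhx2, which are linked to stellate cell identity. They were taken from the table of raw counts as the 10 rows of 55573 whose gene symbol matched a member. In GENCODE M21 on GRCm38, Acta2 spans chr19:34241090-34255590 and Tagln chr9:45929619-45936058 (both minus strand), Des chr1:75360329-75368579, Vim chr2:13573927-13582826 and Pdgfra chr5:75152292-75198215 (plus strand). Hand2 spans chr8:57320983-57324633 and Lhx2 chr2:38339281-38369733 (plus strand), and Reln chr5:21884454-22344702 and Ngfr chr11:95568818-95587735 (minus strand). All 10 passed the filter on low counts, a mean of at least 10 counts over all libraries, as did 14062 genes of the table in all.

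Liver mRNA of C57BL/6 mice aged 3 months was sequenced, 1 library per mouse. In the Cre mice Flcn is wild type and Albumin-Cre is present. The mice labelled FLCN KO, called liver-Flcn-/- mice below, carry Albumin-Cre and floxed Flcn, so all 4 groups express the recombinase, whose promoter is active in hepatocytes and not in stellate cells. Either genotype was fed chow with 10 kcal percent fat or a methionine- and choline-deficient (MCD) diet, started at 6 weeks of age and kept up for 6 weeks. Chow was fed to 6 Cre and 5 liver-Flcn-/- mice, and MCD to 5 Cre and 6 liver-Flcn-/- mice. Between 13751347 and 21144388 reads were counted on genes per library, and levels are CPM, counts divided by TMM-scaled library totals. Flcn had 31.7 ± 4.91 CPM (SD, n = 6) in the Cre group on chow, against 20.4 ± 2.78 CPM (SD, n = 5) with the deletion. The 2 groups did not overlap, and Flcn had a log2 fold change of -0.63 (SE 0.173, edgeR adjusted p = 0.025). On MCD it had 29.2 ± 8.42 CPM (SD, n = 5) and 26 ± 5.13 CPM (SD, n = 6), with groups that overlapped (log2 fold change -0.16, SE 0.17, edgeR adjusted p = 0.57). On either diet, counts of the whole gene include exons outside the deleted part and cells that Albumin-Cre does not target. Flcn RNA did not separate the labels on MCD, and the reason was not tested.

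Some libraries stood apart. Cre MCD 3 held 3930 CPM of RNA from 15 skeletal muscle genes, against 185 CPM in Cre MCD 4, 88.9 CPM in FLCN KO MCD 3, 24.4 CPM in Cre MCD 1, 17.7 CPM in FLCN KO Chow 3 and at most 7.58 CPM in the other 17 libraries. None of the 15 genes was at 0 in Cre MCD 3, where Myh1 was the most abundant, whereas 7 to 12 of them were at 0 in 5 of the 6 Cre livers on chow. Desmin and the actins are muscle proteins too, so comparisons with Cre mice on MCD were made with and without Cre MCD 3. A fold change of a member or related gene printed only with all libraries kept its side of the threshold without Cre MCD 3. Of the chow libraries, 5 (3 Cre and 2 liver-Flcn-/-) had under 75% uniquely mapped reads. These were exactly the chow libraries with Y-linked but hardly any Xist RNA, so mapping share and sex pattern cannot be told apart on chow. In bulk liver, fewer stellate cells and less RNA per stellate cell cannot be told apart either.

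Before activation stellate cells lie quietly in the space of Disse, express neural and mesenchymal transcription factors, and touch the sinusoidal endothelium with long processes. On activation, ligands of the platelet-derived growth factor family drive their proliferation, and serum response factor with its actin-sensing coactivators drives contractile genes through CArG boxes. The CArG box is a sequence of 2 C, 6 bases of A or T, and 2 G, and it has the same form on either strand. The promoter table of RefSeq (GRCm38.p6) held 8 of the 10 genes and not Tagln or Pdgfrb. In the 250 bases before the listed start, matches with at most 1 of the 6 middle bases other than A or T were found in 8.59% of 32851 promoters, and matches with none in 1.47%. Acta2 had 2 of the former, which are shown because Acta2 is a textbook target of this factor, with the matches in capitals.
Acta2, chr19:34255438-34255467, minus strand: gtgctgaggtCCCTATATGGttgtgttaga
Acta2, chr19:34255388-34255417, minus strand: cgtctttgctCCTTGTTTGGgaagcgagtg
The first match began 84 bases and the second 34 bases before the listed start. That start is the one of RefSeq, and both stretches lie within the GENCODE M21 span of Acta2 given above. Des, Vim, Pdgfra, Reln, Hand2, Ngfr and Lhx2 had no match in this window.

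Muscle RNA was present in some libraries, and Acta2 has a skeletal muscle paralog, Acta1. The longest open reading frames of both, 1134 bases each in GENCODE M21 on GRCm38, were identical at 968 positions (85.4%). Their first 30 bases are shown with the 9 differing bases in capitals.
Acta2: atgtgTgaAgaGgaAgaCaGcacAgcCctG
Acta1: atgtgCgaCgaAgaCgaGaCcacCgcTctT
Of the 2121 different windows of 75 bases in the Acta2 transcripts, 0 occurred in a transcript of another gene. For Tagln 53.3% of such windows lay in another gene, nearly all of them in the antisense gene Gm48529, and for Hand2 13.7% lay in the antisense gene Hand2os1. The share was 4.05% for Pdgfra, 3.94% for Des and at most 0.538% for the others. How reads that overlap 2 genes were counted is not given in the sources used here, so the levels of Tagln and Hand2 are the least certain.

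Per kilobase of exon, the 10 genes had the same order in both genotypes on chow, except that Tagln and Hand2 changed places. In Cre mice on chow Vim was the highest at 3.93 ± 0.916 CPM per kb (SD, n = 6), followed by Hand2 at 3.09 ± 0.842, Tagln at 2.9 ± 1.34 and Reln at 1.99 ± 0.55 CPM per kb. Pdgfrb (1.65 ± 0.602), Ngfr (1.54 ± 0.362) and Des (1.35 ± 0.249 CPM per kb) came next. Lhx2, Acta2 and Pdgfra were lowest, at 0.941 ± 0.307, 0.83 ± 0.546 and 0.427 ± 0.135 CPM per kb. Neighbours in this order differed by less than the larger of their SDs, apart from Des and Lhx2. In Cre mice on MCD the order was led by Vim (13 ± 5.1 CPM per kb, SD, n = 5) and Tagln (10.5 ± 2.29 CPM per kb), and Ngfr was the lowest at 0.942 ± 0.294 CPM per kb. In liver-Flcn-/- mice on MCD Vim (5.82 ± 1.73 CPM per kb, SD, n = 6) and Hand2 (4.2 ± 1.02 CPM per kb) led, and Acta2 and Ngfr were lowest at 0.847 ± 0.435 and 0.805 ± 0.304 CPM per kb.

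**Figure D1:**
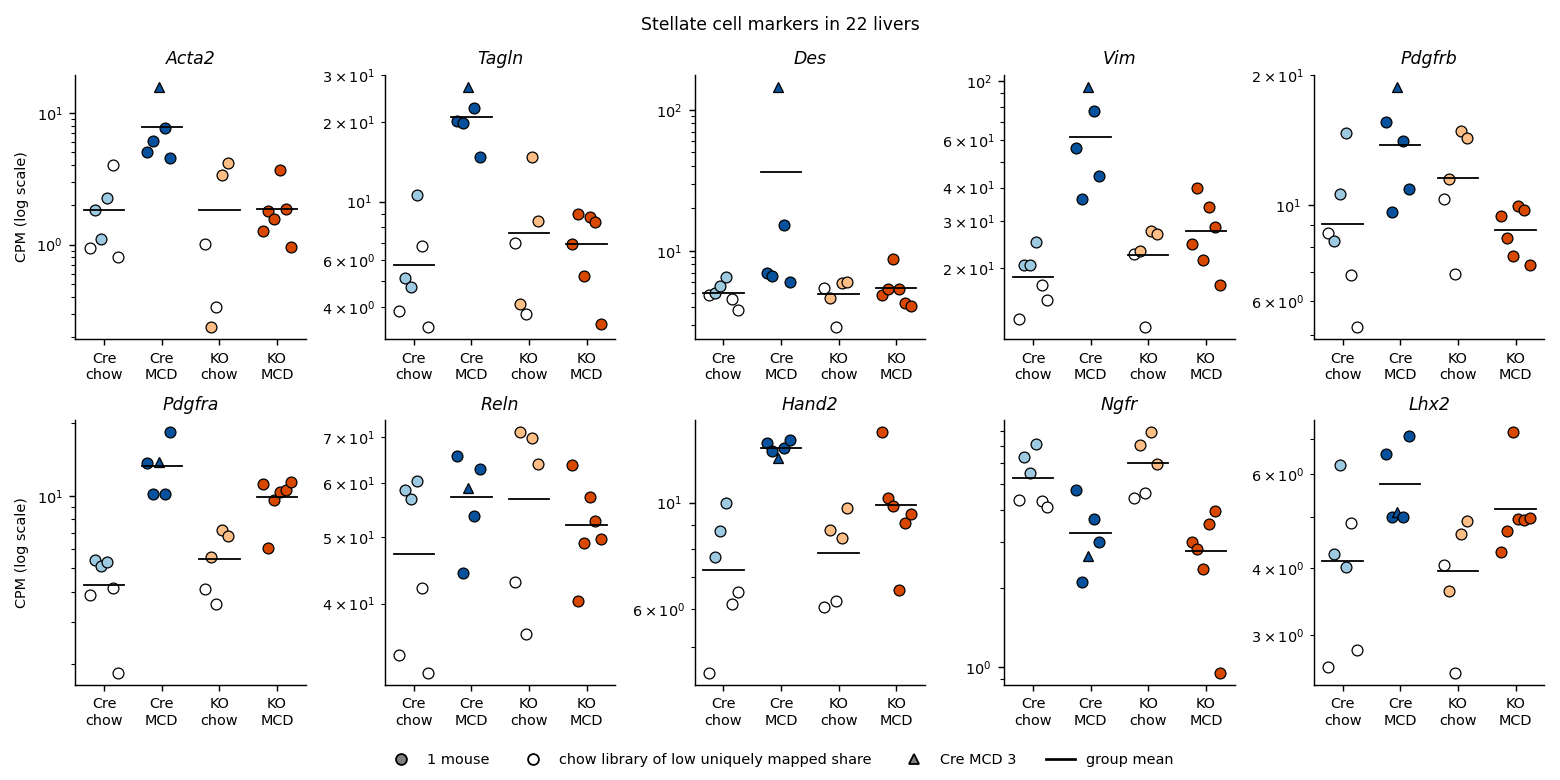
CPM (log scale) of each of the 10 genes in 22 livers by genotype and diet; each point is 1 mouse, the line is the group mean, open points are the chow libraries under 75% uniquely mapped reads, and the triangle is Cre MCD 3. Acta2, Tagln and Vim were higher in the Cre livers on MCD than in nearly all other livers, Des was far from the rest in Cre MCD 3 at 146 CPM, and Ngfr was lower on MCD in both genotypes.

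The MCD diet raised most of these genes in Cre mice. Of the 10 members, the diet raised 7 and lowered 1 (edgeR quasi-likelihood test, Benjamini-Hochberg adjusted p under 0.05, as in all comparisons below), where 29.3% of all tested genes rose and 28.2% fell. The median log2 fold change of the members was 1.23, against 0.01 over all tested genes. Without Cre MCD 3, 6 members rose and 0 fell, against 29.4% and 29.1% of all tested genes, and their median was 0.81. The member that fell with all libraries was Ngfr.

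Acta2 encodes smooth muscle actin, the usual marker of activated stellate cells. Cre livers on chow had 0.803 CPM at the lowest, 1.47 at the median and 3.99 CPM at the highest, and the 5 Cre livers on MCD had 5.06, 6.12, 15.8, 7.71 and 4.56 CPM. All 5 were above every Cre liver on chow, and Cre MCD 3 was the highest of them. The log2 fold change was 2.09 (SE 0.553, edgeR adjusted p = 0.0027), and without Cre MCD 3 it was 1.67 (SE 0.546, adjusted p = 0.012).

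Tagln, which encodes the actin-binding protein transgelin, had between 3.37 and 10.6 CPM (median 4.96) in Cre livers on chow. On MCD the Cre livers had 20.1, 19.9, 27.2, 22.6 and 14.7 CPM, again all above every Cre liver on chow. It rose by a log2 fold change of 1.85 (SE 0.327, edgeR adjusted p = 6.3e-05), and leaving out Cre MCD 3 left 1.73. Its antisense neighbour Gm48529 had 1.79 to 2.43 CPM in Cre livers on chow and 1.83 to 2.25 CPM on MCD.

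Vim, the intermediate filament of mesenchymal cells, had 13 to 25.1 CPM (median 18.9) in Cre livers on chow and 56, 36.4, 95.2, 77.1 and 44.2 CPM in those on MCD. The groups did not overlap. Vim had a log2 fold change of 1.73 (SE 0.253, edgeR adjusted p = 6.8e-06) with all libraries and 1.52 (SE 0.245) without Cre MCD 3.

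Des, the muscle-type intermediate filament that marks rodent stellate cells in quiescence and activation alike, depended on 1 library for its size. The Cre livers on chow had 3.78 to 6.51 CPM (median 4.97), and those on MCD had 6.96, 6.64, 146, 15.3 and 5.99 CPM. The 2 highest values were those of Cre MCD 3 and Cre MCD 4, the libraries with the most skeletal muscle RNA, and the lowest MCD value lay within the chow range. The log2 fold change fell from 2.83 (SE 0.64, edgeR adjusted p = 0.00074) to 0.78 (SE 0.26, adjusted p = 0.014) without Cre MCD 3. It was 0.37 (adjusted p = 0.11) with Cre MCD 4 and FLCN KO MCD 3 left out as well. By limma-voom with all libraries the rise of Des did not pass (adjusted p = 0.063).

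Both receptors of platelet-derived growth factor rose. Pdgfra had 1.85 to 5.4 CPM (median 4.63) in Cre livers on chow and 13.7, 10.2, 13.8, 10.2 and 18.3 CPM in those on MCD, with no overlap. It rose by a log2 fold change of 1.62 (SE 0.236, edgeR adjusted p = 6.3e-06), and 1.6 without Cre MCD 3, whose value lay within the range of the others. Pdgfrb had 5.22 to 14.7 CPM (median 8.44) on chow and 15.6, 9.61, 18.8, 14.1 and 10.9 CPM on MCD, and the groups overlapped. Its log2 fold change was 0.60 (SE 0.223, edgeR adjusted p = 0.025). Without Cre MCD 3 it was 0.47 (adjusted p = 0.084), and without the low-share chow libraries 0.30 (adjusted p = 0.25). The call was also lost without Cre Chow 5, Cre Chow 6 or Cre MCD 1.

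Of the 4 identity genes, 1 rose and 1 fell. Hand2, a basic helix-loop-helix factor of lateral mesoderm, had 4.43 to 10 CPM (median 7.11) in Cre livers on chow, and the Cre livers on MCD lay close together at 13.3, 12.8, 12.4, 13 and 13.5 CPM. It rose by a log2 fold change of 0.83 (SE 0.182, edgeR adjusted p = 0.00053), and by 0.85 without Cre MCD 3, and Hand2os1, antisense to it, had 2.45 to 4.81 CPM in Cre livers on chow and 4.61 to 7.55 CPM on MCD. Ngfr, the p75 neurotrophin receptor, had 4.1 to 7.12 CPM (median 4.92) on chow and 4.74, 2.11, 2.67, 3.69 and 3.02 CPM on MCD, where 4 of the 5 livers were below every chow liver. Its log2 fold change was -0.71 (SE 0.271, edgeR adjusted p = 0.03). Leaving out any of 5 libraries, Cre Chow 2, Cre Chow 4, Cre MCD 2, Cre MCD 3 or Cre MCD 5, took the adjusted p above the threshold, to at most 0.084.

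Reln, the secreted glycoprotein reelin, and Lhx2, a LIM homeobox factor that holds stellate cells in the quiescent state in mouse studies, did not pass by edgeR. Their log2 fold changes with MCD in Cre mice were 0.27 (95% interval -0.10 to 0.65, edgeR adjusted p = 0.23) and 0.47 (0.07 to 0.87, adjusted p = 0.055). Lhx2 was near the threshold and passed by DESeq2 and by limma-voom (adjusted p = 0.038 each), whereas without the low-share chow libraries it was at 0.24 (adjusted p = 0.33). For Reln the chow libraries were split: the 3 Cre livers of low mapping share had 33.6, 42.2 and 31.7 CPM, and the other 3 had 58.7, 56.9 and 60.4 CPM. Against the latter alone the log2 fold change of Reln was -0.04 (SE 0.132). Within the Xist-low mice, whose Cre chow livers are the low-share ones, Reln rose by 0.65 (SE 0.175, edgeR adjusted p = 0.0057). Without the low-share chow libraries, 6 members rose and 1 fell in Cre mice, against 26.3% and 24.8% of all tested genes.

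In liver-Flcn-/- mice the diet moved 2 members. Pdgfra rose and Ngfr fell, where 22.5% of all tested genes rose and 22.5% fell with MCD in this genotype. The median log2 fold change of the 10 members was 0.06, against 0 over all tested genes. Comparisons of the diets in Cre and in liver-Flcn-/- mice share no libraries.

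Pdgfra had 4.12, 5.58, 3.56, 7.22 and 6.84 CPM in the liver-Flcn-/- livers on chow and 6.07 to 11.4 CPM (median 10.5) on MCD. Only 1 MCD liver, FLCN KO MCD 2 at 6.07 CPM, lay within the chow range. The log2 fold change was 0.84 (SE 0.237, edgeR adjusted p = 0.006). Ngfr had 4.44, 7.07, 4.63, 7.89 and 5.98 CPM on chow and 0.954 to 3.96 CPM (median 2.92) on MCD, with no overlap. It had a log2 fold change of -1.11 (SE 0.268, edgeR adjusted p = 0.0018).

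With all mice of this genotype together, Acta2, Tagln, Des and Vim did not pass. Acta2 had 1.01, 0.238, 0.336, 3.36 and 4.15 CPM on chow, a wide spread that rested on 4 to 77 counts per library, and 0.954 to 3.68 CPM (median 1.69) on MCD. Its log2 fold change was 0.01, with a 95% interval of -1.11 to 1.12. Tagln had 7, 4.1, 3.76, 14.7 and 8.46 CPM on chow and 3.44 to 8.95 CPM (median 7.65) on MCD, a log2 fold change of -0.13 (95% interval -0.78 to 0.51). For Vim the value was 0.30 (-0.20 to 0.79) and for Des 0.12 (-1.15 to 1.39). Vim rose within the Xist-low liver-Flcn-/- mice alone, by 0.92 (SE 0.263, edgeR adjusted p = 0.013), and was at -0.20 (adjusted p = 0.52) within the Xist-high ones. The intervals of Acta2 and Des include changes of more than 1 on the log2 scale in either direction.

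The low-share chow libraries weighed on this comparison. Reln had 43 and 36.1 CPM in the 2 liver-Flcn-/- chow livers of low mapping share and 71.2, 69.8 and 64 CPM in the other 3, and 40.4 to 63.7 CPM (median 51.4) on MCD. With all libraries its log2 fold change was -0.12 (edgeR adjusted p = 0.63), and without the low-share ones it was -0.39 (SE 0.126, adjusted p = 0.019). Pdgfrb went from -0.41 (adjusted p = 0.14) to -0.63 (SE 0.198, adjusted p = 0.016). Without these libraries 1 member thus rose and 3 fell in liver-Flcn-/- mice, against 21.6% and 21.7% of all tested genes.

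On chow the genotypes did not differ detectably in any member. By edgeR 0 of 10 passed in either direction, where 5.52% of all tested genes were higher with the deletion and 3.1% lower, and 0 had an unadjusted p under 0.05. DESeq2 and limma-voom also called 0. The lowest adjusted p was 0.37, for Pdgfrb, with a log2 fold change of 0.35 (95% interval -0.09 to 0.79). The intervals were wide for Acta2 (0.02, -1.12 to 1.16) and narrower for Hand2 (0.11, -0.25 to 0.48) and Reln (0.27, -0.11 to 0.64).

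On MCD 5 members were lower in liver-Flcn-/- than in Cre mice, and 0 were higher. Over all tested genes 8.53% were lower and 8.06% higher. The 5 were Acta2, Tagln, Des, Vim and Pdgfrb, the cytoskeletal genes and 1 receptor, and the median log2 fold change of the 10 members was -0.54, against -0.01 over all tested genes. Without Cre MCD 3, 3 members (Acta2, Tagln and Vim) were lower, against 8.38% of all tested genes, and the median was -0.47.

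Every Cre liver on MCD had more Acta2 than every liver-Flcn-/- liver on MCD, with the lowest Cre value at 4.56 CPM and the highest liver-Flcn-/- value at 3.68 CPM. The log2 fold change was -2.07 (SE 0.543, edgeR adjusted p = 0.011), and -1.65 (SE 0.535, adjusted p = 0.038) without Cre MCD 3. For Tagln too the groups did not overlap, with 14.7 CPM as the lowest Cre and 8.95 CPM as the highest liver-Flcn-/- value. Its log2 fold change of -1.59 (SE 0.321, edgeR adjusted p = 0.0017) was -1.47 without Cre MCD 3.

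Vim had 17.4 to 39.8 CPM (median 26.6) in liver-Flcn-/- livers on MCD, and the highest of these, FLCN KO MCD 2, lay above the lowest Cre liver. The log2 fold change was -1.16 (SE 0.249, edgeR adjusted p = 0.0028), and -0.95 (adjusted p = 0.01) without Cre MCD 3. Des had 4.06 to 8.76 CPM (median 5.1) in liver-Flcn-/- livers on MCD, the highest value being that of FLCN KO MCD 3, the library of this group with the most muscle RNA. Its log2 fold change of -2.73 (SE 0.63, edgeR adjusted p = 0.0048) became -0.68 (SE 0.257, adjusted p = 0.073) once Cre MCD 3 was left out.

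Pdgfrb had 7.25 to 9.97 CPM (median 8.9) in liver-Flcn-/- livers on MCD, and only the lowest Cre liver, at 9.61 CPM, lay within that range. The log2 fold change was -0.66 (SE 0.222, edgeR adjusted p = 0.044), and the adjusted p was 0.12 without Cre MCD 3. The call was kept only when Cre MCD 2, Cre MCD 5 or FLCN KO MCD 4 was the mouse left out, and lost without any 1 of the other 8. Pdgfra, whose log2 fold change between genotypes on MCD was -0.42 (95% interval -0.87 to 0.02, edgeR adjusted p = 0.22), Hand2 (-0.40, -0.75 to -0.05, adjusted p = 0.14), Ngfr (-0.23, -0.76 to 0.30), Lhx2 (-0.15, -0.55 to 0.24) and Reln (-0.13, -0.50 to 0.24) did not pass.

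**Figure D2:**
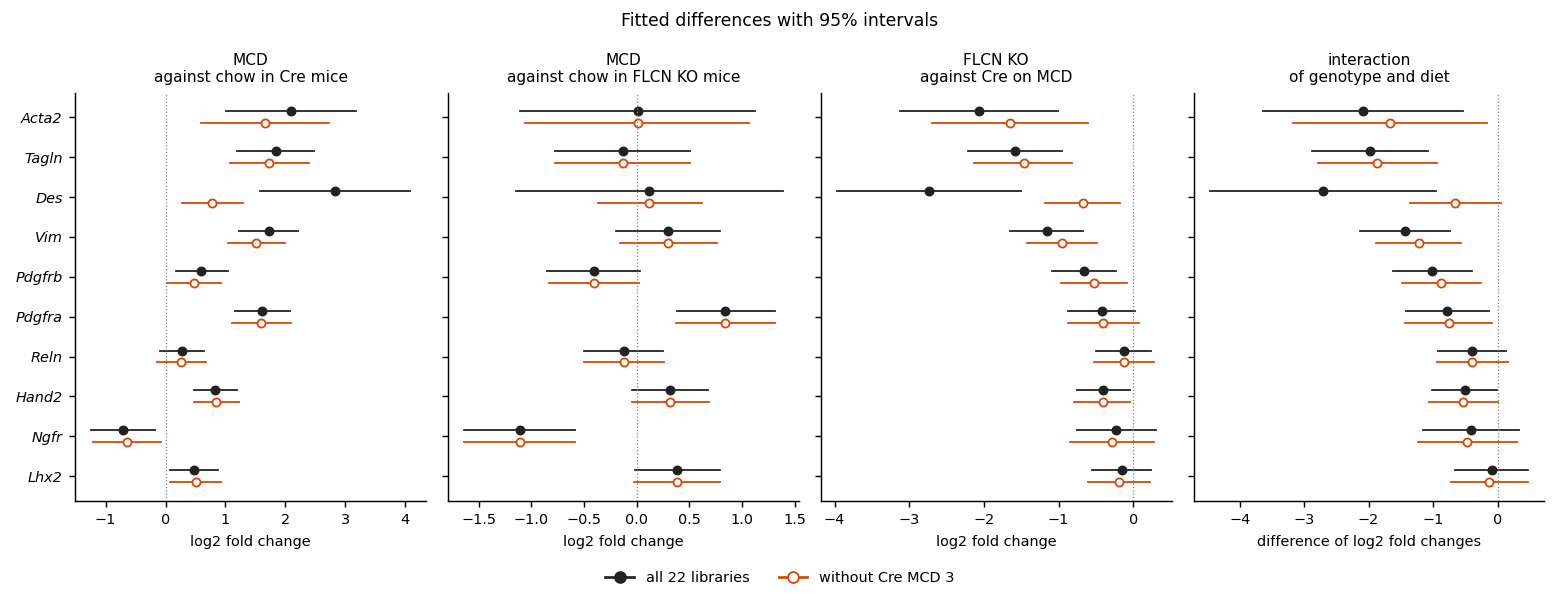
Log2 fold changes of the 10 genes with 95% intervals (points and bars) for the diet in either genotype, the genotypes on MCD, and the interaction, with all 22 libraries (filled) and without Cre MCD 3 (open). Des is the member that moved most when Cre MCD 3 was left out, from 2.83 to 0.78 for the diet in Cre mice and from -2.73 to -0.68 between genotypes on MCD.

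The interaction, the difference between the genotypes in their response to the diet, was negative and passed for 3 members, where 5.54% of all tested genes passed with a negative value. These were Tagln (-1.98, SE 0.461, edgeR adjusted p = 0.011), Vim (-1.43, SE 0.355, adjusted p = 0.016) and Pdgfrb (-1.01, SE 0.316, adjusted p = 0.048). Without Cre MCD 3, 2 passed (Tagln and Vim), against 6.05% of all tested genes. Acta2 had an interaction of -2.09 with an SE of 0.79 (edgeR adjusted p = 0.10), and Des one of -2.71 (adjusted p = 0.062), which without Cre MCD 3 was -0.66 (adjusted p = 0.26). Des passed the interaction test by DESeq2 with all libraries (adjusted p = 0.027). By edgeR it passed when Cre MCD 1, Cre MCD 2 or Cre MCD 5 was left out. For the interaction DESeq2 called 4 members and limma-voom 2. For Pdgfra the interaction was -0.78 (adjusted p = 0.15), which did not pass. The interaction of Ngfr, which fell in both genotypes, was -0.41 (95% interval -1.15 to 0.34). Pdgfrb lost its interaction call in 17 of 22 fits that each left out 1 library, all but those without Cre Chow 4, Cre MCD 2, Cre MCD 5, FLCN KO Chow 3 or FLCN KO MCD 4.

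Cre MCD 3, Cre MCD 4 and FLCN KO MCD 3 were the 3 libraries with the most muscle RNA, and leaving out all 3 left 3 Cre and 5 liver-Flcn-/- mice on MCD. In that fit 1 member, Tagln, was called between genotypes on MCD (log2 fold change -1.32, edgeR adjusted p = 0.04), and 3.65% of all tested genes were lower. For the interaction 0 members were called, and 3.1% of all tested genes had a negative call. Between genotypes on MCD in the same fit, Acta2 was at -1.44 (edgeR adjusted p = 0.16) and Vim at -0.66 (adjusted p = 0.12). Des was at -0.45 (adjusted p = 0.17) and Pdgfrb at -0.43 (adjusted p = 0.35) in that comparison. In Cre MCD 5, with 2.15 CPM of muscle RNA and so at the level of the chow livers, Acta2 was at 4.56, Tagln at 14.7 and Vim at 44.2 CPM. In FLCN KO MCD 3, with 88.9 CPM of muscle RNA, they were at 1.57, 5.24 and 21.5 CPM. With all libraries 15 of 15 tested muscle genes were higher with MCD in Cre mice, against 29.3% of all tested genes. The same 15 were lower in liver-Flcn-/- than in Cre mice on MCD, against 8.53%. Without Cre MCD 3 only 11 of the 15 passed the filter on low counts, so these counts were partly set by that library. Of the 11, 10 were higher with MCD in Cre mice (29.4% of all tested genes) and 0 lower between genotypes (8.38%). The part of muscle RNA in the levels of the remaining livers was not tested.

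**Figure D3:**
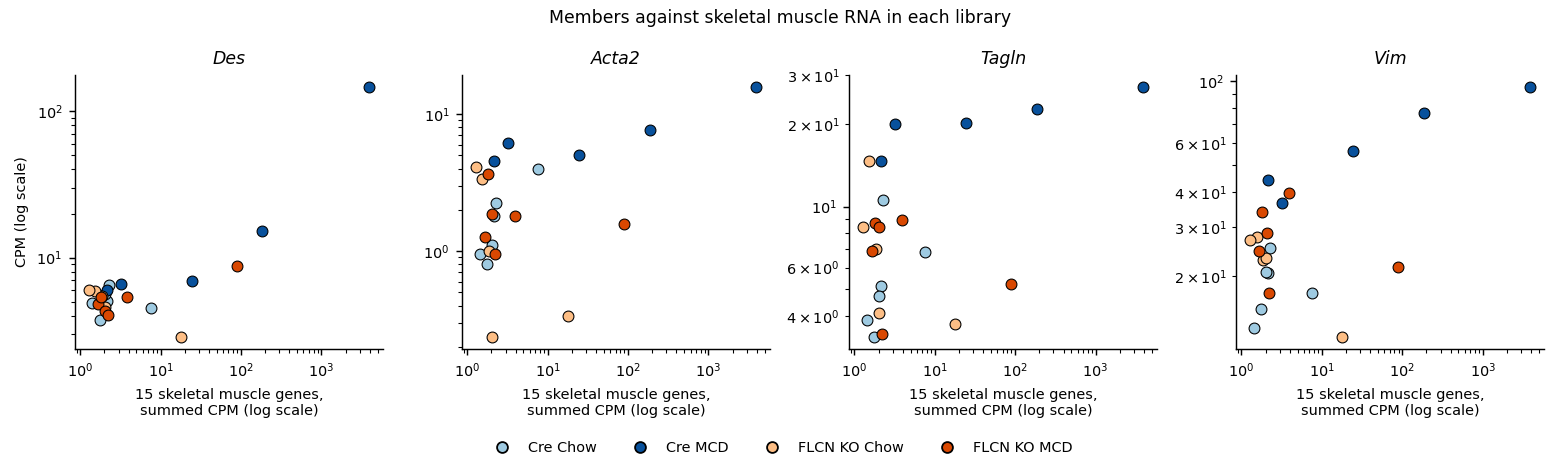
CPM of Des, Acta2, Tagln and Vim (log scale) against the summed CPM of 15 skeletal muscle genes (log scale), 1 point per liver, coloured by group. Des was highest in Cre MCD 3, at 3930 CPM of muscle RNA, and in Cre MCD 4, at 185 CPM. In the Cre livers on MCD, ordered by muscle RNA from 2.15 to 3930 CPM, Tagln was at 14.7, 19.9, 20.1, 22.6 and 27.2 CPM. In the same order Acta2 was at 4.56, 6.12, 5.06, 7.71 and 15.8 CPM. Vim was at 44.2, 36.4, 56, 77.1 and 95.2 CPM. A link with muscle RNA was not tested.

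Mice with high and with low Xist counts were also compared separately, in 1 fit of 8 combinations of group and Xist pattern. With MCD in Cre mice Acta2, Tagln, Vim, Pdgfra and Hand2 rose within both patterns, where 25.5% (Xist-high) and 21.3% (Xist-low) of all tested genes rose. Des was at 0.19 (adjusted p = 0.77) and Pdgfrb at 0.11 (adjusted p = 0.72) within the Xist-high mice, and they rose by 4.19 (adjusted p = 1.2e-05) and 1.25 (adjusted p = 0.00082) within the Xist-low mice. In liver-Flcn-/- mice the diet raised 1 member and lowered 3 within the Xist-high mice, against 18.8% and 19.3% of all tested genes. Within the Xist-low mice it raised 3 (Vim, Pdgfra and Hand2) and lowered 0, against 13.9% and 14.8%. Whether the patterns differ was not tested, and on chow the pattern goes with the mapping share. Between genotypes on MCD, within the Xist-high mice, to which Cre MCD 3 does not belong, Tagln was lower in liver-Flcn-/- mice on MCD by a log2 fold change of -1.68 (SE 0.401, edgeR adjusted p = 0.0098) and Vim by one of -1.02 (SE 0.226, adjusted p = 0.0063), where 6.91% of all tested genes were lower. Acta2 was at -1.85 (SE 0.649, adjusted p = 0.068) and Des at -0.20 (SE 0.499, adjusted p = 0.84). Within the Xist-low mice, which include Cre MCD 3 and Cre MCD 4 as the only Cre livers on MCD, 5 members were lower, as were 5.23% of all tested genes. Acta2 was at -2.37 (adjusted p = 0.028), Tagln at -1.60 (adjusted p = 0.021), Vim at -1.40 (adjusted p = 0.0014), Des at -3.96 (adjusted p = 0.00022) and Pdgfrb at -0.83 (adjusted p = 0.042). The library Cre MCD 1 was counted as Xist-high but also held 675 Y-linked counts, against 38 and 8 in the other Xist-high Cre livers on MCD.

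The counts for related lists below stand against 29.3% of all tested genes that rose and 28.2% that fell with MCD in Cre mice, against 22.5% that rose and 22.5% that fell when liver-Flcn-/- mice took MCD, and against 8.06% higher and 8.53% lower between genotypes on MCD. Other genes linked to stellate cells were mixed, and their counts are not set apart from those shares by any test. Of 14 tested, the diet raised 5 and lowered 1 in Cre mice (median log2 fold change 0.25). The liver-Flcn-/- mice had 1 that rose with MCD and 4 that fell (median -0.27), and on MCD 2 were lower than in Cre mice (median -0.22). Cygb, the stellate cell globin, rose by 1.45 (SE 0.158, edgeR adjusted p = 1.4e-07) on the log2 scale in Cre mice and was lower in liver-Flcn-/- mice on MCD (log2 fold change -0.64, adjusted p = 0.0063). Dcn, a small matrix proteoglycan, rose by 0.77 (SE 0.136) and Nes, an intermediate filament protein, by 0.81 (SE 0.27), which without Cre MCD 3 was 0.63 (adjusted p = 0.053). Nes had a log2 fold change of -1.29 (SE 0.271, adjusted p = 0.0023) between genotypes on MCD. Lrat, which esterifies retinol for storage and is the defining marker of the quiescent cell, was at 0.36 (adjusted p = 0.12) with MCD in Cre mice and at -0.02 (adjusted p = 0.97) between genotypes on MCD.

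Matrix and fibrogenic genes, products of activated stellate cells and of other fibroblasts, rose in nearly all cases in Cre mice. Of 15 tested, the diet raised 14 and lowered 0 in Cre mice (median log2 fold change 1.53), where 29.3% of all tested genes rose. The liver-Flcn-/- mice had 3 that rose and 2 that fell (median 0.06), and 10 were lower in liver-Flcn-/- than in Cre mice on MCD (median -0.76), where 8.53% of all tested genes were. On chow 2 of the 15, Mmp2 and Loxl1, were higher in liver-Flcn-/- than in Cre mice and 0 lower (median 0.53, against -0.03 over all tested genes), where 5.52% and 3.1% of all tested genes were. Col1a1, the main chain of type I collagen, rose by 2.67 (SE 0.402, edgeR adjusted p = 9.4e-06) in Cre mice and was lower in liver-Flcn-/- mice on MCD, with a log2 fold change of -1.76 (SE 0.382, adjusted p = 0.0031). Col3a1 (-1.55), Col5a2 (-1.45) and Col1a2 (-1.20) were lower between genotypes as well. Ccn2, a matricellular growth factor, rose by 2.01 in Cre and by 1.51 (adjusted p = 0.00017) in liver-Flcn-/- mice, and Mmp2, a gelatinase, by 1.61 (SE 0.245) in Cre mice, with an interaction of -1.62 (adjusted p = 0.0062). S100a6, a calcium-binding protein, rose by 1.71 (SE 0.437) in Cre mice. Without Cre MCD 3, 13 of the 15 rose with MCD in Cre mice, against 29.4% of all tested genes. In that setting 6 were lower between genotypes, against 8.38%, and Col1a1 was at -1.62 (edgeR adjusted p = 0.0079).

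The contractile partners of Acta2 and Tagln were more mixed. With MCD, 7 of 15 tested rose and 1 fell in Cre mice (median log2 fold change 0.70), and 8 were lower in liver-Flcn-/- mice on MCD (median -0.80). All tested genes gave 29.3% risen, 28.2% fallen and 8.53% lower. Without Cre MCD 3, 5 of 14 rose and 2 fell with MCD, against 29.4% and 29.1% of all tested genes. Between genotypes 3 (Tpm1, Flna and Csrp1) were lower in that setting, against 8.38%. Flna, an actin crosslinker, rose by 1.57 (SE 0.197, edgeR adjusted p = 9.2e-07) in Cre mice and was at -0.96 between genotypes on MCD, and at -0.88 (adjusted p = 0.0052) without Cre MCD 3. Tpm1, a tropomyosin, rose by 2.15 (SE 0.222) in Cre mice and by 1.72 without Cre MCD 3. Synpo2 and Tpm2, which skeletal muscle expresses too, had log2 fold changes of 3.5 and 2.76 with MCD in Cre mice, and of 1.16 (adjusted p = 0.017) and 0.26 (adjusted p = 0.65) without Cre MCD 3. Their differences between genotypes on MCD, -3.22 and -3.55, were -0.88 (adjusted p = 0.11) and -1.05 (adjusted p = 0.13) without Cre MCD 3. Myh11, smooth muscle myosin, and Myl9, its light chain, were lower in liver-Flcn-/- mice on MCD with all libraries, at -1.47 (SE 0.495) and -1.04 (SE 0.318), and at -0.32 (adjusted p = 0.55) and -0.74 (adjusted p = 0.10) without Cre MCD 3. Srf, the factor itself, was at -0.19 (adjusted p = 0.097) with MCD in Cre mice and at -0.06 (adjusted p = 0.72) between genotypes on MCD. Its coactivators Mrtfa and Mrtfb were at 0.09 and -0.04 with MCD in Cre mice and did not pass.

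Most partners of the intermediate filaments rose too. With MCD, 5 of 6 tested rose and 0 fell in Cre mice (median log2 fold change 1.16), against 3 that rose without Cre MCD 3, and 4 were lower in liver-Flcn-/- mice on MCD. Of all tested genes 29.3% rose with all libraries and 29.4% without Cre MCD 3. Plec, the linker plectin, rose by 1.22 (SE 0.157) in Cre mice and was at -0.57 (adjusted p = 0.014) between genotypes on MCD, and Lmna, nuclear lamin, rose by 1.09 (SE 0.13). Synm, which copolymerizes with desmin, rose by 3.82 (SE 0.724), and by 2.16 (SE 0.443) without Cre MCD 3, and its difference between genotypes on MCD went from -2.85 to -1.19 (adjusted p = 0.039) without Cre MCD 3. Cryab, a small heat shock protein of muscle, rose by 1.40 with all libraries and was at -1.77 between genotypes. These values were -0.21 (adjusted p = 0.50) and -0.17 (adjusted p = 0.70) without Cre MCD 3.

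**Figure D4:**
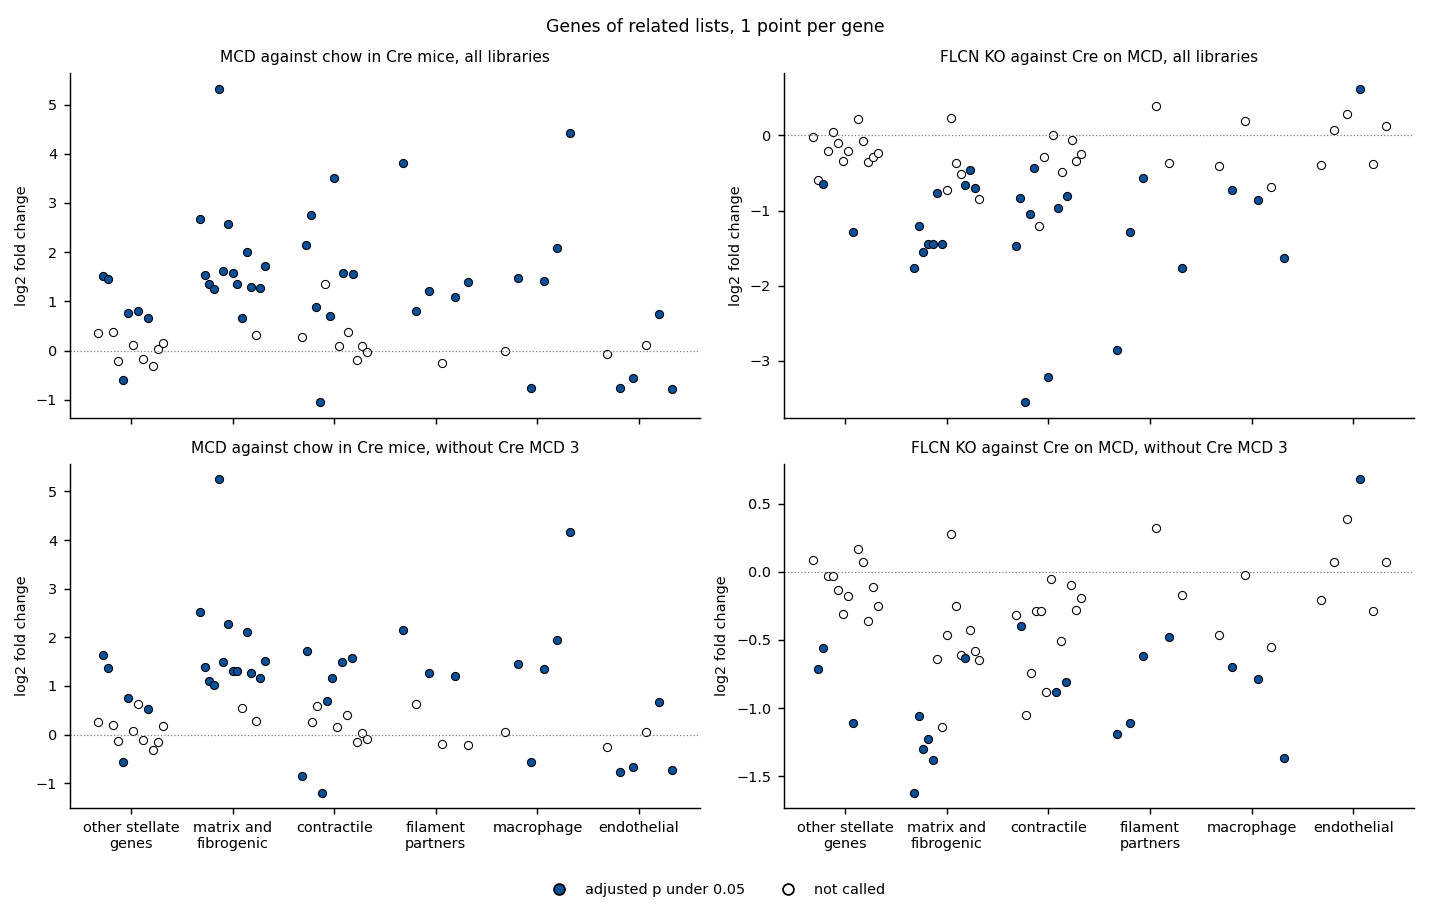
Log2 fold changes of the genes of 6 lists, 1 point per tested gene, filled where the adjusted p was under 0.05, for MCD against chow in Cre mice (left) and liver-Flcn-/- against Cre mice on MCD (right), with all libraries (top) and without Cre MCD 3 (bottom). With all libraries 14 of 15 matrix and fibrogenic genes were higher with MCD in Cre mice and 10 were lower in liver-Flcn-/- mice on MCD.

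The ligands of the receptors were measured too. Of the 4 platelet-derived growth factor genes, Pdgfb rose by 1.94 (SE 0.266, edgeR adjusted p = 2.8e-06) and Pdgfa by 1.27 (SE 0.177, adjusted p = 3.7e-06) on the log2 scale with MCD in Cre mice, and Pdgfc (0.00) and Pdgfd (0.12) did not pass. Pdgfa was lower in liver-Flcn-/- than in Cre mice on MCD, with a log2 fold change of -0.57 (SE 0.173, adjusted p = 0.028). Among 5 tested partners of Ngfr, 2 were lower and 0 higher with MCD in Cre mice, one of them the sorting receptor Sort1 (-0.66, SE 0.221, adjusted p = 0.015). The reelin receptor Vldlr and the adaptors Dab1, Crk and Crkl were at 0.83, 1.39, 0.25 and -0.30 with MCD in Cre mice. These did not pass (edgeR adjusted p 0.42, 0.053, 0.057 and 0.065). Without Cre MCD 3, Dab1 was higher (1.57, adjusted p = 0.034) and Crkl lower (-0.43, adjusted p = 0.006). Vldlr had 0.474, 0.406 and 0.161 CPM in the low-share Cre livers on chow and 16.6, 19.3 and 9.55 CPM in the others. Cre livers on MCD had 5.97 to 19.9 CPM of Vldlr.

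Markers of other cells moved with the diet as well, where 29.3% of all tested genes rose and 28.2% fell in Cre mice. The lists of endothelial and bile duct genes are small, and their counts were not tested against those shares. With MCD in Cre mice 4 of 6 macrophage genes went up and 1 down, Itgax, an integrin of recruited macrophages, by 4.42 (SE 0.424) and Ccr2, Cd68 and Lyz2 by 2.08, 1.48 and 1.41. Their summed level had a median of 263 CPM in Cre livers on chow and 335 CPM on MCD. In liver-Flcn-/- livers the median was 314 CPM on chow and 218 CPM on MCD. A large part of these sums was Clec4f, with 110 to 183 CPM on chow and 35.6 to 124 CPM on MCD in Cre livers. In liver-Flcn-/- livers Clec4f had 146 to 186 CPM on chow and 80.3 to 150 CPM on MCD. Of the 6 genes 1 rose and 2 fell with MCD in liver-Flcn-/- mice, against 22.5% each of all tested genes. The median log2 fold change of the 6 was 0.19 there. Between genotypes on MCD 3 of the 6 were lower, Itgax (-1.63), Lyz2 (-0.86) and Cd68 (-0.73). The part of macrophages in the levels of the members was not tested. Of 7 portal fibroblast and mesothelial genes tested 5 rose with MCD in Cre mice (3 without Cre MCD 3), among them Eln (2.09), Entpd2 (1.89), Msln (1.57) and Fbln2 (1.24), and their sum went from a median of 9.65 to 26.7 CPM. Among the Cre livers on MCD the sum was highest in Cre MCD 3, at 49.2 CPM, and without that library Msln was at 1.01 (adjusted p = 0.08) and Fbln2 at 0.69 (adjusted p = 0.085). In liver-Flcn-/- livers that sum had a median of 17.2 CPM on chow and 23.9 CPM on MCD. Entpd2 alone had 3.03 to 8.33 CPM in them on chow and 10.5 to 18.5 CPM on MCD. Of the 7 tested genes 2 rose and 0 fell with MCD in liver-Flcn-/- mice, against 22.5% each of all tested genes. Their median log2 fold change was -0.22. On MCD, Eln (-1.24) and Fbln2 (-1.80, and -1.26 without Cre MCD 3) were lower and Entpd2 (1.07) higher than in Cre mice. These fibroblasts express several of the 10 genes, and their part in the levels was not tested. Of 6 endothelial genes 1 was higher and 3 were lower on MCD than on chow in Cre mice, Clec4g (-0.79), Cdh5 (-0.77) and Kdr (-0.56) against Lyve1 (0.75), and of 6 hepatocyte genes 1 rose (Cyp3a11, 1.08) and 5 fell, among them Ttr (-1.28), Apoa1 (-0.99) and Cps1 (-0.99). Stab2 was higher in liver-Flcn-/- mice on MCD (0.62, adjusted p = 0.0012). Of 4 bile duct genes 2 rose with MCD in Cre mice, Krt7 (1.15) and Epcam (1.09), and Sox9 was higher in liver-Flcn-/- mice on MCD (0.71), a call lost without Cre MCD 3. Schwann cells also carry Ngfr. Of their 2 tested genes 1 rose with MCD in Cre mice, and the 4 listed ones summed to at most 4.73 CPM in any liver.

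Some members varied together among the livers of a group. After removal of group means, Pearson's r of log2 CPM over 22 libraries was 0.84 between Pdgfra and Reln, 0.82 between Acta2 and Tagln, 0.76 between Vim and Pdgfrb and 0.74 between Tagln and Vim. It was 0.08 between Acta2 and Hand2 and 0.03 between Des and Ngfr, the latter 0.32 over the 21 libraries without Cre MCD 3. These libraries share their scaling, and the chow libraries of low mapping share enter all of these values. Of all tested genes, the one most like Acta2 was Myl9 (r = 0.85). Tagln was closest to Col1a1 and Serpinh1 (0.86 each) and Pdgfrb to Col6a2 (0.94). Vim was closest to Cpxm1 (0.91), Pdgfra to Ntn1 (0.93) and Reln to Gnb4 and Ntn1 (0.91 each). Hand2 was closest to Tbx2 (0.86), Ngfr to Il10ra (0.86) and Lhx2 to Notch1 (0.84). Over the 21 libraries without Cre MCD 3, Vim was closest to Gatm and Col1a1 and Reln to Epb41l2 and Ces1g (0.92 each). Des was closest to Nexn and Cryab (0.97 each), and the value for Nexn was 0.84 over the 21 libraries without Cre MCD 3.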

How the data were processed

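The authors trimmed reads of liver mRNA with Trimmomatic, aligned them to GRCm38 with STAR, and deposited raw counts per gene from HTSeq; versions, the annotation release, strand setting and any use of the molecular identifiers in the adapters are not given in the sources used here. The deposited counts were read for 55573 genes and 22 libraries, of which no 2 were identical. The 14062 genes that averaged 10 or more counts were scaled by TMM and fitted with edgeR 4.0.16 in R 4.3.3, 1 fit of 4 groups, quasi-likelihood test, two-sided, Benjamini-Hochberg adjustment over all tested genes, called under 0.05. The fit was tested on simulated data. CPM use TMM-scaled library sizes, and intervals are 1.96 SE. Log2 CPM for correlations had a prior count of 2. Mice with at least 1000 Xist counts were taken as Xist-high. Exon lengths and transcripts are from GENCODE M21. The members and lists were chosen with earlier results of these data known. From each list but that of skeletal muscle, which is given by its sum, the text names the 4 called genes with the largest change and at least 1 CPM, in the diet comparison in Cre mice and the genotype comparison on MCD; Lrat, Srf, its coactivators, Csrp1, the reelin list and the PDGF genes below the threshold were added after their values were seen. Alternatives were DESeq2 1.42.0, limma-voom (limma 3.58.1), RLE factors, other filters, the replicate number as a block, the sex pattern as a covariate and omitted libraries. Of these, 4, the fit without 3 muscle-rich libraries and those within each sex pattern, were chosen after seeing the data. Nothing in the labels links same-numbered mice, which were not treated as pairs. The share of uniquely mapped reads was taken from the statistics the study gives per library. A gene that this rule names is not reported here.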

Additional observations from a re-analysis of the deposited data

Results flagged for a closer look

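Single livers stood far from the rest of their group for several members by Dixon's criterion at 95%, applied to 40 combinations of member and group, of which chance alone marks about 1 in 20. Acta2 was at 15.8 CPM in Cre MCD 3 and at 3.68 CPM in FLCN KO MCD 4. Des was at 146 CPM in Cre MCD 3 and at 8.76 CPM in FLCN KO MCD 3, which held 3930 and 88.9 CPM of muscle RNA. Pdgfra was lowest in its group at 6.07 CPM in FLCN KO MCD 2. Lhx2 was at 7.19 CPM in FLCN KO MCD 3.

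The response to the diet differed between genotypes, by the test of the interaction itself with edgeR, for Tagln (-1.98), Vim (-1.43) and Pdgfrb (-1.01). Without the 3 muscle-rich libraries the calls of Tagln (edgeR adjusted p = 0.059) and Vim were lost, and that of Vim was also lost with the replicate block. The call of Pdgfrb was lost without Cre MCD 3 (adjusted p = 0.078), in 17 of the 22 fits that each left out 1 library, and under 6 of 9 other alternatives.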

How the results depend on the processing

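Of 1260 comparisons of a member's value with its value under an alternative, 1136 kept their side of the threshold (uncalled ones within 1 SE), 74 fell short of it, 22 newly passed, 28 uncalled values moved by more than their SE, and no called value changed sign, though 41 uncalled ones did. The 5 members called between genotypes on MCD were 3 with the replicate block (6.36% of all tested genes were lower), 1 without the 3 muscle-rich libraries (3.65%), 2 within Xist-high mice, with Cre MCD 3 in the fit (6.91%) or not (7.89%), and 5 within Xist-low mice (5.23%), against 8.53% with all libraries. The fits that each left out 1 mouse called 3 to 5, with 3 only without Cre MCD 3, and 6.04% to 8.83% of all tested genes were lower. The 3 interaction calls (5.54% of all tested genes) were 1 with the replicate block (2.51%) and, by edgeR, 0 without the 3 muscle-rich libraries (3.1%), where 4 members had an unadjusted p under 0.05 and Tagln an adjusted p of 0.059. The 2 members called with MCD in liver-Flcn-/- mice were 4 without the low-share chow libraries (1 higher, 3 lower), 4 within Xist-high mice in both fits (1 higher, 3 lower) and 3 within Xist-low mice (3 higher, 0 lower). The causes of these changes were not tested; smaller fits have fewer mice. Same-numbered mice share only a number: after removal of group means, their correlations ranged from 0.0621 to 0.262 over 5 pairs on MCD, and the lowest was below 0 in each of the other comparisons. Of the 10 mice with a shared number on MCD, 4 correlated best with their own number. Acta2 rested on as few as 4 counts in a library, which limits what could be seen on chow. No member fell below the filter on low counts, so the planned permutation test had no case.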
